A study of Homo sapiens and Mus musculus with 12 samples.

Results

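The NK92MI part of the series held 6 of its 12 RNA-seq samples, chosen by their labels: 3 libraries of NK92MI cells treated with BIX-01294 and 3 of NK92MI cells treated with DMSO, the solvent control. NK92MI is an established human natural killer (NK) cell line, derived from a lymphoma, that carries an IL2 transgene and grows without added cytokine, so both groups shared the same line and the same transgene. No genetic change separates the groups. The polyA RNA was sequenced in bulk, and every gene of the human count table was taken as a member, which gave 18304 listed genes, of which 12727 had counts high enough to be tested. The other 6 samples are mouse NK cells and were not analysed here. No source used here says that the 3 libraries of a group came from separate cultures, so p-values measure only the spread between these libraries, which may be technical.

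BIX-01294 is a small molecule that inhibits EHMT2 (G9a) and the related enzyme EHMT1 (GLP). The pair works as a complex, with WIZ as a partner, that places mono- and dimethyl marks on lysine 9 of histone H3, marks found on silent genes in euchromatin. NK cells kill by releasing perforin and granzymes from lytic granules and by death ligands, and they secrete interferon gamma and chemokines. These programmes are driven by receptor signalling through kinases, calcium, NF-kB and AP-1, and by factors such as TBX21 and EOMES. The comparison asked which of these programmes differed in transcript level when the inhibitor was present.

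The libraries were even in depth, with 16579469 to 17165446 counts each, medians of 16953528 with BIX-01294 and 17043514 with DMSO, and a biological coefficient of variation of 7.55%. Treated libraries were less alike than controls: the Pearson correlation of log2 levels was 0.990 to 0.992 for pairs of BIX-01294 libraries and 0.993 for each DMSO pair. Levels are given as CPM, a gene's counts scaled to library size after TMM normalization, which is a share of each library's RNA and not an amount per cell, and fewer cells with a transcript cannot be told apart from less RNA per cell. A gene was called when edgeR's quasi-likelihood test gave a Benjamini-Hochberg adjusted p under 0.01 and the log2 fold change, BIX-01294 minus DMSO, was over 0.5 in either direction. By this rule 794 genes rose and 691 fell, 6.24% and 5.43% of those tested and 11.7% together. The counts of called members given below for each list are to be read beside these shares, and no list was tested against them. The median log2 fold change of all tested genes was −0.01. Beyond 1 on the log2 scale lay 255 of the genes that rose and 172 of those that fell, and beyond 2 lay 52 and 21. Every called gene had groups that did not overlap, against 47.9% of all tested genes. The first principal component of the 500 most variable genes held 70.2% of the variance and separated the groups (p = 0.1 by an exact two-sided permutation test, which with 3 libraries a group can give no smaller p).

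**Figure D1:**
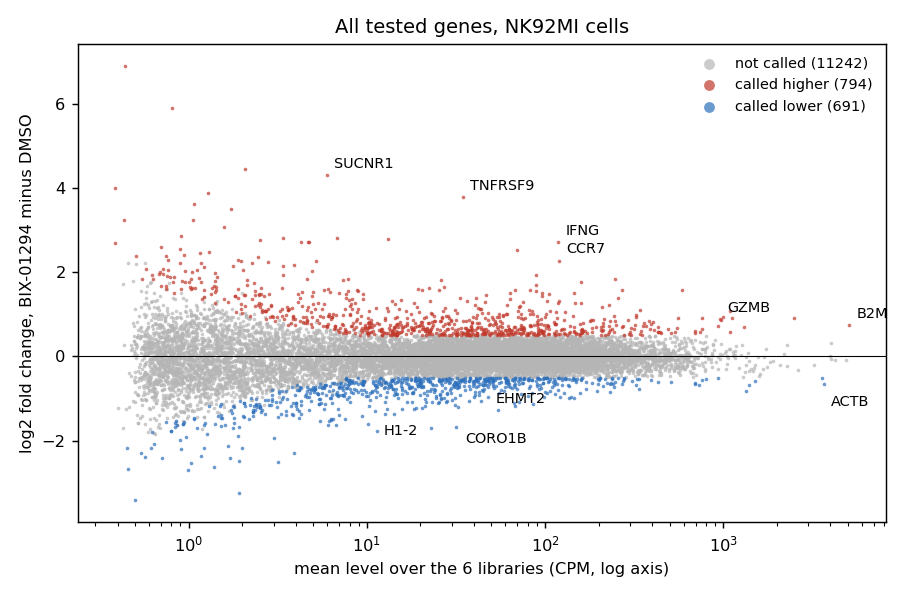
Log2 fold change of every tested gene (vertical axis, BIX-01294 minus DMSO) against its mean level over the 6 libraries in CPM (horizontal log axis). The 794 genes called higher (red) and the 691 called lower (blue) span the whole range of levels, from genes below 1 CPM to B2M and ACTB, the most abundant genes called higher and lower.

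The cells carried most of the listed markers of NK cells in both groups. Of 14 NK markers, 13 were tested, and the summed level of the 14 ran from 5539 to 7017 CPM with BIX-01294 and from 4848 to 5315 CPM with DMSO. The adaptor genes TYROBP (DAP12) and FCER1G were exceptions, with at most 9 and at most 24 counts in any library. The markers did not move together. Of the 13, 3 were called higher (23.1%, against 6.24% of all tested genes), and none lower. Log2 fold changes were above 0 for 9 and below 0 for 4: KLRC1 (−0.38), NCR1 (−0.35), EOMES (−0.17) and IL2RB (−0.16). Of 8 T cell markers 3 were in the table, and CD3E, a chain that NK lines can carry without a T cell receptor, made up most of their sum, which was 520 to 596 CPM with BIX-01294 and 490 to 510 CPM with DMSO. CD3D, CD3G, CD5, CD8A and CD8B had no entry. The B cell markers summed to 24.2 to 26.3 CPM with BIX-01294 and 13.4 to 14.4 CPM with DMSO, which came mainly from PAX5 (log2 fold change 0.86, called higher), and MS4A1 had at most 3 counts per library. Myeloid markers summed to at most 5.23 CPM and red cell and platelet markers to at most 0.763 CPM. Of 7 epithelial and fibroblast markers 1 was in the table, PDGFRB, a growth factor receptor gene, at 159.6 to 183 CPM with BIX-01294 and 227 to 257 CPM with DMSO (log2 fold change −0.51, called lower, a call lost in 4 of 13 alternatives). These marker levels were scaled to totals over all listed genes, tested or not.

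The gene of the main enzyme target was itself lower with the inhibitor. EHMT2, on chromosome 6 of GRCh38 from 31879759 to 31897698 on the minus strand, was at 40.4, 39.3 and 35.8 CPM with BIX-01294 and 57.1, 61.6 and 54.3 CPM with DMSO. The groups did not overlap, and its log2 fold change was −0.58 (SE 0.08, adjusted p = 0.000101 by edgeR). This call was lost in a fit with an offset for GC content, chosen after the data were seen, where the log2 fold change was −0.44. EHMT1 was at 69.3, 77.8 and 72.3 CPM with BIX-01294 and 85.1, 83.3 and 79.2 CPM with DMSO, a difference of −0.17 on the log2 scale (SE 0.07, adjusted p = 0.0664 by edgeR) that did not pass the test. Transcript counts do not measure the activity of either enzyme or the mark.

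Of 33 tested genes of the H3K9 and DNA methylation machinery none rose and 4 fell, EHMT2 among them, with a list median of −0.04. The share that fell was 12.1%, against 5.43% of all tested genes. DNMT3B, a de novo DNA methyltransferase, was at 13.1, 14.9 and 13.7 CPM with BIX-01294 and 30.9, 26.8 and 30.3 CPM with DMSO and fell by 1.08 on the log2 scale (adjusted p = 3.49e-06 by edgeR). WIZ, the zinc finger partner of the complex, and KDM4B, an H3K9 demethylase, both had log2 fold changes of −0.50, at the edge of the threshold, and lost the call in 7 and 8 of 13 alternatives, the GC offset included. The maintenance enzyme DNMT1 had −0.43 on the log2 scale (SE 0.07, adjusted p = 0.000211 by edgeR) and was not called, nor were the H3K9 methyltransferase genes SUV39H1 (−0.01), SUV39H2 (−0.03) and SETDB1 (−0.20). Among 39 other chromatin enzymes 1 rose and 4 fell. KDM6B, the demethylase of H3K27 induced in activated lymphocytes, rose from 12.9, 10.1 and 12.5 CPM with DMSO to 27.5, 27.2 and 25.2 CPM with BIX-01294. The class IIa deacetylase genes HDAC4, HDAC7 and HDAC9 and the acetyltransferase gene KAT2A fell, with log2 fold changes of −0.69, −0.65, −0.66 and −0.71. HDAC5, of the same class, had 0.02 on the log2 scale (SE 0.09, adjusted p = 0.887 by edgeR) and was not called. EZH2, the methyltransferase of H3K27, had 0.03 on the log2 scale (SE 0.06, adjusted p = 0.719 by edgeR).

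Cytokine and chemokine genes were mostly higher. Of 22 tested members 13 rose and none fell, with a list median of 0.56 on the log2 scale. IFNG, which encodes interferon gamma, was at 259, 165 and 193 CPM with BIX-01294 and 31.1, 28.4 and 35.03 CPM with DMSO. The lowest treated library was thus far above the highest control, and the log2 fold change was 2.71 (SE 0.14, adjusted p = 1.9e-08 by edgeR). The chemokine gene CCL5 was at 1259.8, 1187 and 1469 CPM with BIX-01294 and 645, 752 and 647 CPM with DMSO, with a log2 fold change of 0.94 (SE 0.08, adjusted p = 2.22e-06 by edgeR). CCL4, a chemokine that attracts leukocytes, moved by 0.93 and its neighbour CCL3 by 1.27. CCL3 and CCL4 have close copies in the genome among which reads can be split, 74.6% of the exonic bases of CCL3 overlapped another annotated gene, and the CCL3 call was lost in 4 of 13 alternatives.

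At a lower level, genes more typical of helper cells and innate inflammation also rose, IL13 and CXCL8 by larger factors than IFNG. IL13 was at 2.86, 1.999 and 2.36 CPM with BIX-01294 and 0.116, 0.117 and 0.237 CPM with DMSO, and CXCL8, a neutrophil chemokine, at 4.02, 2.82 and 2.72 CPM with BIX-01294 and 0.407, 0.234 and 0.178 CPM with DMSO. IL23A, a subunit of interleukin 23, was at 8.89, 6.88 and 8.502 CPM with BIX-01294 and 1.69, 0.819 and 1.18 CPM with DMSO, and CXCL10, an interferon-induced chemokine, at 4.44, 2.704 and 2.598 CPM with BIX-01294 and 0.815, 0.643 and 0.533 CPM with DMSO. Their log2 fold changes were 3.88, 3.51, 2.71 and 2.28, and no group overlapped the other, as in 47.9% of all tested genes. IL13 had at most 4 counts and CXCL8 at most 7 in any DMSO library. A gene at such levels passes the filter more easily when 1 group is high, so these increases are a description. IL10, IL32, LTA, LTB and TNFSF14 (LIGHT) rose by 0.55 to 0.71 on the log2 scale, of which IL10, LTA and LTB lost the call in 3, 1 and 4 of 13 alternatives. TNF did not follow: it was at 3.04, 2.53 and 3.96 CPM with BIX-01294 and 3.14, 2.98 and 2.84 CPM with DMSO, the groups overlapped, and the difference was 0.09 on the log2 scale (SE 0.22, adjusted p = 0.792 by edgeR). IL2, for which reads of the transgene and of the cell's own gene were not separated, was at 38.7, 31.9 and 38.5 CPM with BIX-01294 and 33.1, 32.8 and 39.8 CPM with DMSO, with a log2 fold change of 0.05 (SE 0.10, adjusted p = 0.766 by edgeR), and XCL1 and XCL2 did not pass the test. CCL22 was below the limit for testing, with 17 counts over the treated libraries and 0 over the controls.

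Among genes of the lytic granule, GZMA, GZMB, GZMH, GZMK and the perforin gene PRF1 rose, but not the whole machinery. Of 21 granule and death ligand genes, 9 rose and 2 fell, with a median of 0.28. GZMA, a tryptase and one of the most abundant transcripts of these cells, was at 3346, 2808 and 3592 CPM with BIX-01294 and 1685, 1751 and 1737 CPM with DMSO. Its log2 fold change was 0.91 (SE 0.08, adjusted p = 1.51e-06 by edgeR). GZMB, the granzyme that cleaves caspases, was at 1261, 1031 and 1432 CPM with BIX-01294 and 638, 715 and 658 CPM with DMSO, and its log2 fold change was 0.89 (SE 0.10, adjusted p = 1.13e-05 by edgeR). GZMH and GZMK rose by 0.68 and 0.85 on the log2 scale, and 47.6% of the exonic bases of GZMK overlapped another gene. PRF1, the pore-forming perforin, was at 814, 749.5 and 911 CPM with BIX-01294 and 549, 592 and 529.7 CPM with DMSO, a log2 fold change of 0.57 (SE 0.08, adjusted p = 6.37e-05 by edgeR). The call for PRF1 was lost without BIX-01294 replicate 3, where its log2 fold change was 0.495, just under the threshold.

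Support genes of the granule differed among themselves. SERPINB9, which protects the cell from its own granzyme B, was at 243, 228 and 229 CPM with BIX-01294 and 128, 123 and 135 CPM with DMSO and rose by 0.86, and the granule proteoglycan gene SRGN rose by 0.61. STX11, a syntaxin needed for granule fusion, rose by 0.72, whereas UNC13D, which primes granules for fusion, fell by 0.60 on the log2 scale, a call lost with the GC offset. GNLY, NKG7, GZMM, CST7 and CTSW had log2 fold changes of 0.17 to 0.43 and were not called, and RAB27A (−0.11) and LAMP1 (0.09) also missed the threshold. The death ligands went opposite ways. TNFSF10 (TRAIL) was at 211, 203 and 211 CPM with BIX-01294 and 86.2, 83.02 and 91.1 CPM with DMSO, and FASLG (FAS ligand) at 55.3, 57.3 and 61.2 CPM with BIX-01294 and 89.3, 91.3 and 89.9 CPM with DMSO. Their log2 fold changes were 1.26 and −0.64, and neither set of libraries overlapped.

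**Figure D2:**
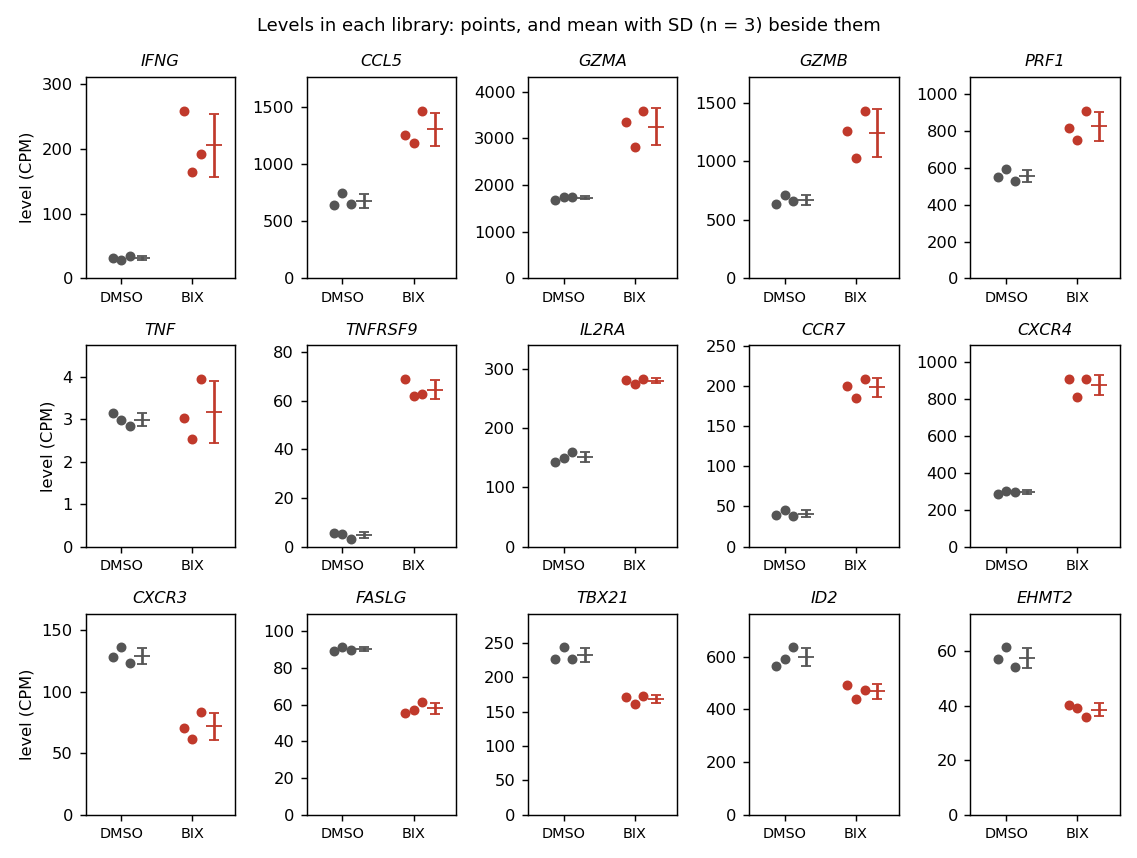
Level in CPM (vertical axes from 0) of 15 genes in each DMSO (grey) and BIX-01294 (red) library, with the mean and SD (n = 3) beside the points. The groups lie apart for every gene shown except TNF.

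Among surface receptors, the costimulatory receptor gene TNFRSF9 (4-1BB, CD137) stood out. It was at 68.9, 61.9 and 62.8 CPM with BIX-01294 and 5.65, 5.203 and 3.195 CPM with DMSO, so the lowest treated library was over the highest control by a wide margin, and its log2 fold change was 3.78 (SE 0.14, adjusted p = 1.95e-09 by edgeR). Its ligand gene TNFSF9 was near the limit of detection, at 0.791, 2.35 and 2.24 CPM with BIX-01294 and 0.6402, 0.585 and 0.0592 CPM with DMSO, and its call was lost in 6 of 13 alternatives. Of 14 tested genes of the costimulatory TNF family, 4 rose and 1 fell: TNFRSF9, TNFSF9, TNFSF14 and the adaptor gene TRAF1 rose, and the adaptor gene TRAF5 fell by 0.60 on the log2 scale.

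Other lists held the receptors of NK cells. Of 20 activating receptor and adhesion genes 3 rose and 1 fell, with a median of 0.09. These shares were 15% and 5%, against 6.24% and 5.43% of all tested genes. Besides TNFRSF9 the risers were FCGR3A (CD16, the receptor for antibody) and SLAMF7 (CRACC). FCGR3A was at 29.9, 28.8 and 33.7 CPM with BIX-01294 and 19.03, 17.7 and 14.6 CPM with DMSO, and SLAMF7 at 932, 895 and 949 CPM with BIX-01294 and 586, 596 and 595 CPM with DMSO. The natural cytotoxicity receptor genes NCR1, NCR2 and NCR3 had log2 fold changes of −0.35, 0.40 and 0.48 and were not called. KLRC3 fell by 1.01, but it has near-identical neighbours, KLRC2 among them, 56.7% of its exonic bases overlapped another gene, and the call was lost in 3 of 13 alternatives. NCAM1 (CD56) was at 349, 374 and 323 CPM with BIX-01294 and 340.4, 347 and 342 CPM with DMSO, and its difference of 0.02 on the log2 scale (SE 0.07, adjusted p = 0.814 by edgeR) did not pass the test. Of 14 inhibitory receptor genes 2 rose and none fell, CTLA4 by 1.23 and KLRD1 (CD94, the partner of NKG2 receptors) by 0.65. TIGIT (0.35), CD96 (0.38) and HAVCR2 (0.23) were not called.

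Receptors for cytokines and for chemokines rose in part. Of 26 tested cytokine receptor genes 7 rose and none fell, with a median of 0.26. IL2RA, the chain that gives the interleukin 2 receptor its high affinity, was at 281, 275 and 283 CPM with BIX-01294 and 144, 149 and 160.4 CPM with DMSO. Its log2 fold change was 0.89 (SE 0.06, adjusted p = 3.11e-07 by edgeR). The signalling chain IL2RB was at 724, 723 and 706 CPM with BIX-01294 and 801, 842 and 765 CPM with DMSO and had −0.16 on the log2 scale (SE 0.06, adjusted p = 0.0457 by edgeR), which was not called. IL18RAP, IFNAR1, IL6ST, KIT, IL2RG and IFNGR1 rose by 0.55 to 0.92 on the log2 scale. The calls for IL2RG and IFNGR1 were lost in 3 and 1 of 13 alternatives, and 51.3% of the exonic bases of IL2RG overlapped another gene. Neither the interleukin 12 receptor genes IL12RB1 (−0.10) and IL12RB2 (−0.23) nor TGFBR1 (0.24) and TGFBR2 (−0.30) were called. IL7R was too low to be tested, with 43 counts over the treated libraries and 10 over the controls.

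For trafficking genes the pattern was 6 higher and 1 lower of 20, with a median of 0.38. CCR7, the receptor that guides lymphocytes to lymph nodes, was at 200.4, 185 and 209 CPM with BIX-01294 and 39.3, 45.8 and 37.9 CPM with DMSO. Its log2 fold change was 2.27 (SE 0.08, adjusted p = 1.95e-09 by edgeR). CXCR4, the receptor for the bone marrow chemokine CXCL12, was at 909, 812 and 909 CPM with BIX-01294 and 283, 303 and 296 CPM with DMSO, a log2 fold change of 1.58. The adhesion ligand gene ICAM1 was at 148, 132 and 144 CPM with BIX-01294 and 35.2, 41.3 and 34.5 CPM with DMSO and rose by 1.93. CD44 and SELPLG rose by 0.84 and 0.70. In the opposite direction, CXCR3, the receptor for interferon-induced chemokines such as CXCL10, was at 70.8, 61.4 and 83.6 CPM with BIX-01294 and 128, 136 and 123 CPM with DMSO and fell by 0.84 on the log2 scale. CCR1 (−0.31) and the integrin genes ITGA4 (−0.45) and ITGAL (−0.34) were below 0 without being called. RGS1, a brake on chemokine receptor signalling that belongs to none of the lists, was at 140.1, 126 and 144 CPM with BIX-01294 and 40.9, 40.5 and 44.9 CPM with DMSO, with a log2 fold change of 1.70.

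NF-kB is a transcription factor family that is held in the cytoplasm by inhibitor proteins until a receptor signals. Of 26 tested regulators and targets 15 rose, none fell and 11 were not called, with a median of 0.63. The list shares ICAM1, TRAF1, CCL3, CCL4, LTA and TNF with lists above, so it is not a separate set of genes. Among the subunits, NFKB2 was at 211, 209 and 225 CPM with BIX-01294 and 73.9, 81.5 and 72.4 CPM with DMSO, with a log2 fold change of 1.5 (SE 0.07, adjusted p = 5.98e-09 by edgeR), and RELB, its partner in the non-canonical branch, was at 56.5, 52.1 and 69.1 CPM with BIX-01294 and 21.4, 25.1 and 21.2 CPM with DMSO, with a log2 fold change of 1.39. The canonical subunits NFKB1, RELA and REL had log2 fold changes of 0.43, 0.13 and 0.57 and were not called. The inhibitors rose as well. TNFAIP3 (A20), which removes ubiquitin chains to end the signal, was at 122, 125 and 123 CPM with BIX-01294 and 41.6, 39.8 and 41.9 CPM with DMSO, with a log2 fold change of 1.59 (SE 0.07, adjusted p = 3.37e-09 by edgeR). NFKBIA (IkB alpha) was at 313, 234 and 328 CPM with BIX-01294 and 121, 129.7 and 135 CPM with DMSO and rose by 1.18. NFKBIB, NFKBIE and NFKBIZ rose by 1.05, 0.75 and 0.70, CYLD by 0.57 and the antiapoptotic ligase gene BIRC3 by 1.39. The kinase genes of the pathway, CHUK (0.22), IKBKB (−0.29), IKBKG (−0.34) and MAP3K14 (0.08), were not called. PELI1, a ubiquitin ligase of Toll-like receptor signalling outside the list, was at 144, 131 and 146 CPM with BIX-01294 and 50.5, 52.6 and 52.9 CPM with DMSO and rose by 1.43.

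Promoter sequence was read for these genes from RefSeq (GRCh38.p14), taking the 250 bases before each annotated start. Of the 15 called NF-kB genes 12 had an entry, and 4 of the 12 held at least 1 match to the kappaB consensus on either strand. Over all 27305 promoters 9.57% held one, over the 9816 of tested genes 11.5%, over the 611 of genes that rose 16.0% and over the 511 of genes that fell 14.3%. The AP-1 letters TGANTCA, searched on both strands, were in 6.60% of all promoters, 3.98% of those of tested genes, 7.20% of those that rose and 4.11% of those that fell, and in none of the 12. These shares describe the letters in the window and say nothing of binding. The stretches with a match are shown because they belong to 4 genes that rose, with the kappaB letters in capitals and the strand of the gene read 5′ to 3′.
TNFAIP3, chr6:137867144-137867243, plus strand, with matches starting 67 and 55 bases before the start: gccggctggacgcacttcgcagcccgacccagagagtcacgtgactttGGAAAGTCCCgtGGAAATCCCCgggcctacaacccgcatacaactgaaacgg
NFKBIA, chr14:35404791-35404890, minus strand, with a match starting 81 bases before the start: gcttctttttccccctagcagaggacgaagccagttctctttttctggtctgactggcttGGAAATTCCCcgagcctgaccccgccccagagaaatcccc
BIRC3, chr11:102317255-102317388, plus strand, with matches starting 199 and 135 bases before the start: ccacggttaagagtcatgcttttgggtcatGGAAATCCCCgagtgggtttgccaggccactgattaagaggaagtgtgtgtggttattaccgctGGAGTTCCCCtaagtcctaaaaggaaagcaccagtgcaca
NFKBIZ, chr3:101827740-101827806, plus strand, with a match starting 223 bases before the start: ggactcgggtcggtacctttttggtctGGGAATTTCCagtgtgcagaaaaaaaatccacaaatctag

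Immediate early genes, which answer receptor signals within minutes, and the feedback phosphatases of the MAP kinases showed 11 risers and no gene that fell among 25 tested, with a median of 0.43. JUN, a subunit of AP-1, was at 253, 226 and 259 CPM with BIX-01294 and 71.2, 78.2 and 69.1 CPM with DMSO. Its log2 fold change was 1.76 (SE 0.07, adjusted p = 3.37e-09 by edgeR). JUNB and FOSL2 rose by 1.35 and 0.83, while FOS was low and at 2.92, 2.53 and 3.96 CPM with BIX-01294 and 5.99, 5.44 and 4.02 CPM with DMSO, a difference of −0.72 on the log2 scale (SE 0.22, adjusted p = 0.0206 by edgeR) that was not called. EGR1 (−0.09) and FOSB (−0.18) were not called either. NR4A1 was at 4.08, 4.23 and 4.01 CPM with BIX-01294 and 0.524, 1.05 and 0.828 CPM with DMSO and NR4A3 at 20.03, 22.7 and 16.7 CPM with BIX-01294 and 7.97, 7.600 and 8.46 CPM with DMSO. These orphan nuclear receptor genes rose by 2.35 and 1.31, in contrast to NR4A2, with a log2 fold change of −0.08. The phosphatase genes DUSP5 and DUSP10 rose by 0.99 and 1.30, and DUSP2 and DUSP6 had −0.55 and −0.25 without passing the test.

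**Figure D3:**
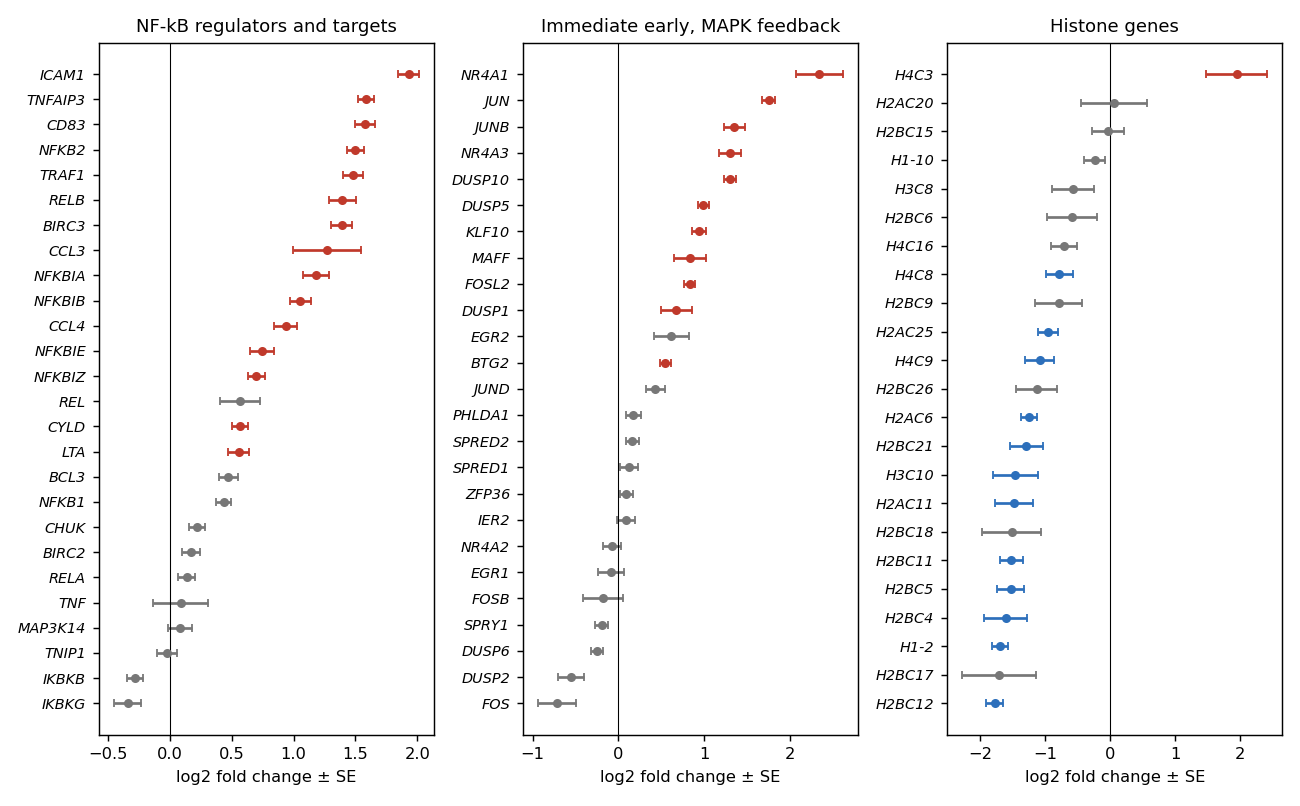
Log2 fold change (BIX-01294 minus DMSO) with its standard error for each tested member of the NF-kB, immediate early and histone lists, red where called higher and blue where called lower. In the first 2 panels called members lie only to the right of 0, and in the histone panel 12 of 13 called members lie to the left.

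Of 42 tested proximal signalling genes of NK receptors none rose and 3 fell, with a median of −0.06, and the share that fell, 7.14%, was close to the 5.43% of all tested genes. FYN, a Src family kinase, was at 172, 176 and 189 CPM with BIX-01294 and 289, 291 and 270.3 CPM with DMSO and fell by 0.66 on the log2 scale. LAT, the adaptor that gathers signalling proteins at the membrane, and the phospholipase gene PLCG2 had log2 fold changes of −0.73 and −0.53, the call for PLCG2 was lost in 3 of 13 alternatives, and 48.5% of the exonic bases of LAT overlapped another gene. ZAP70 (−0.50), VAV1 (−0.40), PLCG1 (−0.38) and LCK (−0.32) were below 0 and SOS1 (0.39) and PPP3CA (0.26) above 0 without being called. In the JAK-STAT list 5 of 23 rose and 1 fell: IL2RA, BCL6, PIM2 and BCL2 were among those that rose, and STAT5B fell by 0.57 on the log2 scale. CISH, a feedback inhibitor of interleukin 15 signalling, had −0.25 on the log2 scale (SE 0.07, adjusted p = 0.00791 by edgeR), which did not meet the fold threshold.

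CORO1B, a coronin that acts on branched actin, had the smallest adjusted p of all genes that fell. It was at 14.7, 16.4 and 14.6 CPM with BIX-01294 and 46.3, 49.9 and 49.1 CPM with DMSO, and its log2 fold change was −1.67 (SE 0.09, adjusted p = 2.46e-08 by edgeR). PXN (paxillin, a scaffold of adhesions) was at 41.3, 43.4 and 40.9 CPM with BIX-01294 and 94.2, 91.3 and 98.3 CPM with DMSO, and PSTPIP1, which links phosphatases to the actin cortex, at 49.8, 57.02 and 54.6 CPM with BIX-01294 and 124, 124 and 106 CPM with DMSO. MYO1F, a myosin of blood cells, was at 162, 172 and 167 CPM with BIX-01294 and 298, 309 and 289.8 CPM with DMSO. Their log2 fold changes were −1.18, −1.13 and −0.84, with no overlap between the groups. The abundant genes ACTB, ACTG1 and CORO1A had log2 fold changes of −0.66, −0.50 and −0.81, and ACTB was at 2911, 2563 and 3115 CPM with BIX-01294 and 4522, 4609.6 and 4409 CPM with DMSO. ACTG1 lay at the threshold and lost its call in 7 of 13 alternatives. Also among the smallest adjusted p of genes that fell were ORAI2, a subunit of calcium channels, at 99.8, 93.2 and 97.5 CPM with BIX-01294 and 197, 197 and 186 CPM with DMSO, RASAL3, a GTPase-activating protein of lymphocytes, at 79.6, 83.7 and 84.01 CPM with BIX-01294 and 164, 170.0 and 149.8 CPM with DMSO, CAPN15 (−0.97) and CCDC69 (−0.87). GOLGA8O (−1.27) belongs to a family of near-identical copies, and its value is uncertain.

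Transcription factors of lymphocytes moved in both directions, with 10 of 37 higher, 6 lower and a median of 0.11. BHLHE40, a factor of activated lymphocytes, was at 1483, 1372 and 1578 CPM with BIX-01294 and 675, 728 and 689.6 CPM with DMSO, with a log2 fold change of 1.08. MAF, MYB, KLF6, BCL6, AHR, ZEB2, RUNX3, SMAD3 and IRF4 rose by 0.51 to 1.48 on the log2 scale. Those that fell were ZNF683 (HOBIT, a factor of tissue-resident lymphocytes), from 8.32, 11.2 and 8.58 to 3.84, 3.47 and 2.598 CPM, KLF2, a quiescence factor, from 4.598, 3.27 and 4.14 to 1.89, 1.59 and 1.95 CPM, and IRF8, STAT5B, IKZF1 and TOX2, by 0.54 to 0.57 on the log2 scale. Calls were lost in 3 of 13 alternatives for IRF4 and for TOX2 and in 1 for KLF2 and for IKZF1. TBX21, the factor of NK maturation and IFNG transcription, was at 171, 162 and 173 CPM with BIX-01294 and 226, 244 and 227 CPM with DMSO. All treated libraries were below all controls, but its log2 fold change of −0.46 (SE 0.06, adjusted p = 7.61e-05 by edgeR) was short of the fold threshold. ID2, which NK development needs, was at 491, 437 and 474 CPM with BIX-01294 and 566, 592 and 636 CPM with DMSO, with −0.35 on the log2 scale (SE 0.07, adjusted p = 0.00104 by edgeR), also short of it. EOMES (−0.17), NFIL3 (0.30), GATA3 (0.35), ETS1 (0.12) and PRDM1 (0.48) were not called.

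The genes of antigen presentation by class I and class II molecules were covered by separate lists. Of 14 class I genes 5 rose, 1 fell and 8 were not called, with a median of 0.37. B2M, the light chain shared by all class I molecules and the most abundant called gene, was at 6459, 5611 and 6965 CPM with BIX-01294 and 3743, 3879 and 3817 CPM with DMSO. Its log2 fold change was 0.73 (SE 0.07, adjusted p = 4.7e-06 by edgeR). HLA-B, HLA-C and the transporter gene TAP1 rose by 0.90, 0.59 and 0.64, while the immunoproteasome gene PSMB10 fell by 0.92 on the log2 scale and NLRC5, the activator of class I genes, had −0.45 on the log2 scale (SE 0.08, adjusted p = 0.000574 by edgeR) and was not called. Another gene overlapped 47.3% of the exonic bases of HLA-B and 39.4% of those of PSMB10. HLA-C lost its call without BIX-01294 replicate 3, where its log2 fold change was 0.47. Of 9 tested class II genes 6 rose, none fell and 3 were not called, with a median of 1.09, mostly at low levels. HLA-DQA1 was at 6.15, 5.11 and 6.61 CPM with BIX-01294 and 1.05, 0.702 and 0.769 CPM with DMSO and HLA-DQB1 at 66.3, 58.4 and 71.8 CPM with BIX-01294 and 27.7, 27.2 and 24.9 CPM with DMSO. HLA-DRB1 and HLA-DRB5 rose by 2.26 and 1.84, but reads can be split between such similar genes, which also vary between people. The invariant chain gene CD74 rose by 0.59, while CIITA, the activator of class II genes, had a log2 fold change of −0.07 and was not called. HLA-DRA had at most 2 counts in any library.

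Interferon-stimulated genes rose in part, 8 of 43 with none lower and a median of 0.17. RSAD2 (viperin, an antiviral enzyme) was at 172, 159 and 167 CPM with BIX-01294 and 71.5, 70.6 and 65.3 CPM with DMSO, with a log2 fold change of 1.27. IFI44L, GBP4, EPSTI1, OAS1, IFI6 and ISG15 rose by 0.53 to 0.996 on the log2 scale. Other members of the same response, IFIT1 (−0.40), OASL (−0.39), IFI44 (−0.32) and GBP1 (−0.16), were not called. IFI44L, IFI6 and ISG15 lost the call in 3, 4 and 5 of 13 alternatives.

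**Figure D4:**
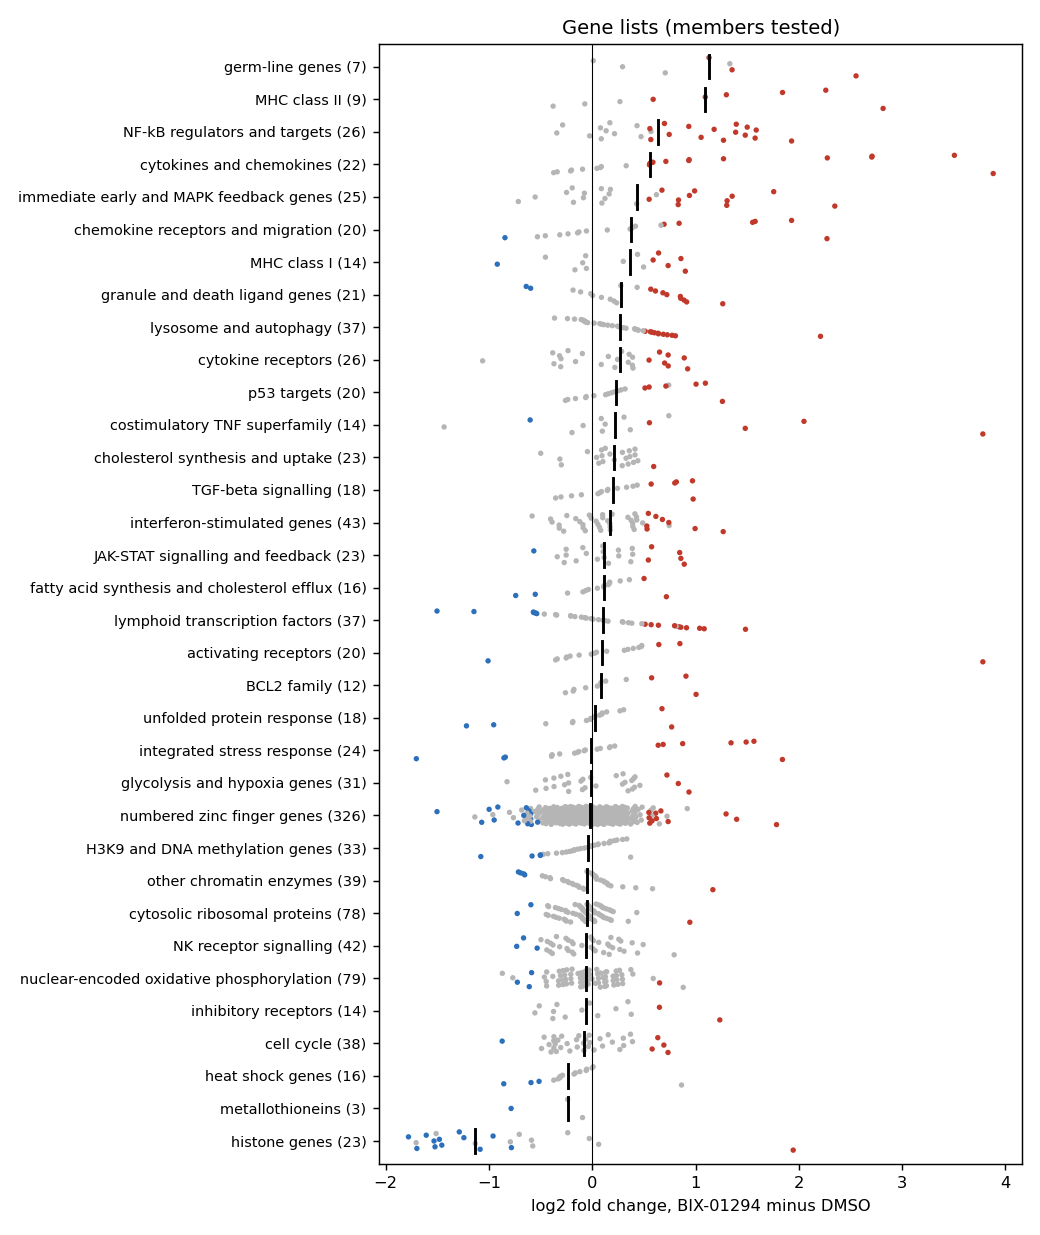
Log2 fold change (BIX-01294 minus DMSO) of each tested member of 34 gene lists, sorted by the list median (black bars), with members called higher in red, called lower in blue and not called in grey. The numbers in parentheses are members tested. The NF-kB and cytokine lists have medians of 0.63 and 0.56, and the histone genes have a median of −1.13.

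Genes of lysosomes and autophagy rose in 11 of 37 cases and fell in none, with a median of 0.27. The autophagosome genes MAP1LC3B and GABARAPL1 rose by 0.77 and 0.81, and SQSTM1 (p62, an autophagy receptor) was at 91.4, 85.3 and 98.5 CPM with BIX-01294 and 55.5, 63.8 and 57.1 CPM with DMSO and rose by 0.64. The cholesterol exporters of the lysosome, NPC1 and NPC2, rose by 0.58 and 0.69, and the partners of folliculin that control lysosome signalling rose too, FNIP1 by 0.73 and FNIP2 by 2.21. LAMP2 (0.45), CTSD (0.26) and TFEB (0.33) were not called. Of 23 genes of cholesterol synthesis and uptake only INSIG1, the retention factor of the sterol sensor, was called, with a log2 fold change of 0.60. However, 19 of 23 were above 0, against 49% of all tested genes, and the list median was 0.21. That difference was not tested. SQLE, an enzyme of the synthesis pathway, had 0.35. In the list of fatty acid synthesis and cholesterol efflux, LPIN1 and INSIG2 rose and MYLIP and NR1H3 fell, and all but LPIN1 lost the call in 2 to 4 of 13 alternatives.

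The integrated stress response did not move as a block, with 7 of 24 higher, 3 lower and a median of −0.01. PPP1R15A (GADD34), the phosphatase subunit that ends the response, was at 395, 329 and 429 CPM with BIX-01294 and 103, 120.1 and 98.6 CPM with DMSO, with a log2 fold change of 1.84 (SE 0.10, adjusted p = 2.26e-08 by edgeR). ATF3, DDIT3 (CHOP) and the amino acid transporter genes SLC3A2, SLC7A11 and SLC38A2 rose by 0.69 to 1.57. Of the exonic bases of DDIT3, 39.6% overlapped another gene. By contrast ATF4, the central factor of the response, was at 173, 143 and 184 CPM with BIX-01294 and 196, 231 and 227 CPM with DMSO and had −0.39 on the log2 scale (SE 0.09, adjusted p = 0.00411 by edgeR), and the serine synthesis genes PSAT1 and PSPH and the pseudokinase gene TRIB3 fell by 1.70, 0.84 and 0.85. For the unfolded protein response 2 of 18 rose and 2 fell, 11.1% each, against 6.24% and 5.43% of all tested genes. The sensor gene ERN1 and the chaperone gene DNAJB9 rose by 0.77 and 0.68, and XBP1 and SDF2L1 fell by 0.95 and 1.22. Of 16 heat shock genes none rose and 3 fell (18.8%, against 5.43% of all tested genes), with a median of −0.23. In this list 14 of 16 were below 0, while 49% of all tested genes were above 0. HSPA8, the constitutive Hsp70, was at 1186, 1174 and 1230.2 CPM with BIX-01294 and 1817, 1839 and 1759 CPM with DMSO and fell by 0.59 on the log2 scale.

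Among targets of p53, 6 of 20 rose and none fell, with a median of 0.23. TIGAR, FAS and PMAIP1 (NOXA) rose by 1.26, 1.10 and 1.005, while MDM2 (0.02) and BBC3 (−0.26) were not called and CDKN1A had at most 6 counts in any library. In the BCL2 family, 3 of 12 rose, namely PMAIP1, MCL1 and BCL2. MCL1, a survival factor of NK cells, was at 999, 1007 and 985 CPM with BIX-01294 and 551, 515 and 528 CPM with DMSO, with a log2 fold change of 0.91 (SE 0.06, adjusted p = 1.11e-07 by edgeR).

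Of 38 tested cell cycle genes 4 rose and 1 fell, with a median of −0.08. These shares were 10.5% and 2.63%, against 6.24% and 5.43% of all tested genes. The cyclin gene CCND2, the inhibitor genes CDKN1B (p27) and CDKN2D (p19) and the ribonucleotide reductase gene RRM2 rose by 0.58, 0.63, 0.73 and 0.69. CDC20, the activator of the anaphase-promoting complex, was at 70.7, 69.2 and 76.5 CPM with BIX-01294 and 128, 141 and 127 CPM with DMSO and fell by 0.87. Other genes of mitosis lay below 0 without being called, such as CCNA2 (−0.49), PLK1 (−0.47), AURKA (−0.37) and MKI67 (−0.35). Of 53 listed histone genes 23 could be tested, of which 12 fell, 1 rose and 10 were not called, with a median of −1.13. Histone H1-2 was at 11.6, 9.17 and 11.5 CPM with BIX-01294 and 30.6, 35.6 and 38.4 CPM with DMSO, and its log2 fold change was −1.70 (SE 0.12, adjusted p = 3.11e-07 by edgeR). H2BC12 was at 5.97, 4.53 and 5.02 CPM with BIX-01294 and 16.2, 19.1 and 17.9 CPM with DMSO and H2AC6 at 10.5, 13.1 and 9.39 CPM with BIX-01294 and 25.4, 27.7 and 24.9 CPM with DMSO, with log2 fold changes of −1.78 and −1.24. The riser, H4C3, was near the limit of detection and lost its call in 4 of 12 alternatives. Many histone transcripts end in a stem-loop without a poly(A) tail, and polyA RNA was sequenced, so their counts reflect the part that was captured, and the share captured was not tested.

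Numbered zinc finger genes, many of which encode repressors that recruit H3K9 methyltransferases, were called less often than all tested genes, a difference that was not tested. Of 326 tested 11 rose and 14 fell, with a median of −0.02. These shares were 3.37% and 4.29%, against 6.24% and 5.43% of all tested genes. ZNF512B and ZNF541 rose by 1.78 and 1.40, both from low levels and with calls lost in 3 of 12 and 4 of 13 alternatives, and besides ZNF683 the largest decreases were those of ZNF414 (−1.07) and ZNF76 (−0.998). Germ-line genes, which are silenced in most body cells, were mostly absent: of 41 in the list 12 had an entry and 7 could be tested. TKTL1, DDX4 and STAG3 rose, with TKTL1 at 1.34, 1.53 and 1.71 CPM with BIX-01294 and 0.175, 0.175 and 0.414 CPM with DMSO and DDX4 at 12.6, 12.5 and 10.6 CPM with BIX-01294 and 5.06, 3.68 and 5.21 CPM with DMSO. A gene at such levels passes the filter more easily when 1 group is high, so their count is a description.

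The largest increases among genes with a mean of at least 1 CPM came from low levels. Both that mean and the filter are met more easily when 1 group is high. The increases given here, and the decreases after them, are therefore a description. KCNJ18, a potassium channel gene, was at 3.59, 3.17 and 5.196 CPM with BIX-01294 and 0.233, 0.117 and 0.178 CPM with DMSO, but it is nearly identical in sequence to KCNJ12 (log2 fold change 2.47), and how reads were divided between them is uncertain. SUCNR1, the receptor for succinate, was at 12.3, 11.5 and 10.3 CPM with BIX-01294 and 0.698, 0.468 and 0.533 CPM with DMSO, with a log2 fold change of 4.31 (SE 0.22, adjusted p = 1.56e-08 by edgeR). FGFBP2, a gene typical of cytotoxic lymphocytes, was at 3.17, 2.12 and 3.19 CPM with BIX-01294 and 0.349, 0.585 and 0.0592 CPM with DMSO. The noncoding genes LINC01215, PELO-AS1 and ENSG00000236453 had log2 fold changes of 3.24, 2.81 and 3.61. Among the largest decreases were TERT, the catalytic subunit of telomerase, at 0.426, 0.4703 and 0 CPM with BIX-01294 and 1.69, 1.34 and 2.25 CPM with DMSO (a call lost in 1 of 13 alternatives) and MAP2K6, a kinase upstream of p38, at 0.609, 0.4703 and 0.649 CPM with BIX-01294 and 2.97, 3.51 and 3.25 CPM with DMSO. GRIN3B (−2.50) and BAHCC1 (−2.29) also fell. MIR5587, SUCLG2-DT, EDRF1-AS1, CLEC12A-AS1 and LCT-AS1 had log2 fold changes of −3.25 to −2.17. The library kit does not mark strand by its name and the counting setting is not given in the sources used here, so reads of antisense genes cannot be told apart from those of their partners. Exonic overlap with another gene was 22.4% for SQSTM1, 23.1% for IFI6, 24.3% for PLCG2, 25.4% for ICAM1, 25.25% for STAG3 and 35.15% for AHR.

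The medians of large housekeeping sets were close to 0. Of 79 nuclear genes of oxidative phosphorylation 1 rose and 3 fell (median −0.06), of 78 cytosolic ribosomal protein genes 1 rose and 2 fell (median −0.05), and of 31 glycolysis and hypoxia genes 3 rose and none fell (median −0.01). PFKFB3, NDRG1 and BNIP3L were the 3, with log2 fold changes of 0.83, 0.94 and 0.72, whereas GAPDH had −0.11. In the order of these lists, 1.27%, 1.28% and 9.68% of members rose, against 6.24% of all tested genes. For genes that fell the shares were 3.8%, 2.56% and 0%, against 5.43%. Of 18 TGF-beta genes 5 rose and none fell, SMAD7, SKIL, ACVR1 and SMAD3 among them. Of 3 metallothionein genes MT1E fell by 0.79. EIF4G2, a translation factor, was among the most abundant called genes, at 1098, 1044 and 1053 CPM with BIX-01294 and 1731, 1709 and 1692 CPM with DMSO, with a log2 fold change of −0.68.

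GC content moved with the calls. The longest annotated transcript had a median GC content of 45.5% for genes that rose, 47.2% for genes not called and 53.8% for genes that fell. From the lowest to the highest of 5 bins of GC content with nearly equal numbers of genes, the share of genes that fell went from 3.06% to 10.8% and the share that rose from 7.19% to 4.34%. With the GC offset 801 genes rose and 586 fell, and 1242 of the 1485 calls were kept, none with the opposite sign. Why GC content differed between the calls was not tested. By gene type, 6.59% of tested protein-coding genes rose and 5.19% fell, against 4.35% and 7.81% of 1012 long noncoding RNA genes.

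**Figure D5:**
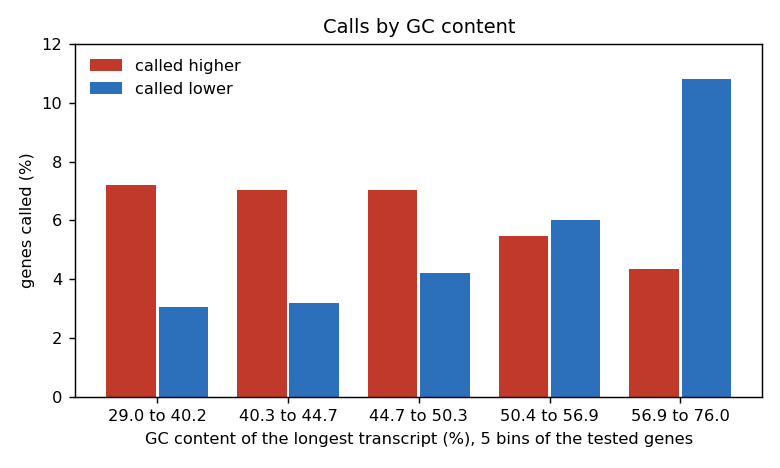
Share of genes called higher (red) and lower (blue) in percent (vertical axis from 0) in 5 bins of the tested genes by GC content of the longest transcript (horizontal axis). The share called lower was 3.06% in the lowest bin and 10.8% in the highest.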

How the data were processed

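RNA-seq of polyA RNA from 3 NK92MI libraries with BIX-01294 and 3 with DMSO was analysed. The authors trimmed the reads with fastp (0.23.4), and used STAR (2.7.11b) for alignment to GRCh38/hg38 and HTSeq (2.0.3) for counting, by the submitters' processing notes. The deposited values are raw counts, with a gene symbol for each row. The annotation release and the strand setting are not given in the sources used here. The table's control columns were read as the DMSO group and carry no link to its numbered samples. All rows name a gene, none a mitochondrial transcript.

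filterByExpr took out genes of low counts, library sizes were normalized with TMM, and edgeR's quasi-likelihood test was fitted to the 12727 remaining genes (R 4.3.3, edgeR 4.0.16, with DESeq2 1.42.0 and limma 3.58.1 for alternatives). Genes were called at an adjusted p under 0.01 and an absolute log2 fold change over 0.5, the study's thresholds. On data simulated for this comparison, with 12727 genes of which 100 were changed by 1 and 100 by 2 on the log2 scale, edgeR recovered 85% and 100%, with 2 false calls. The changed genes were drawn only from those with a mean of at least 1 CPM. The simulated spread was that of edgeR's own fit, so recovery below 1 CPM or under another spread was not measured. Nor was recovery of changes between the threshold of 0.5 and 1 on the log2 scale. All other genes were simulated with no difference, so the 2 false calls hold only for that setting. Counting error matters at this depth only for genes of few counts. Positions, GC content and overlaps are from GENCODE 44, which matched 98.0% of symbols and is not shown to be the authors' release.

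The genes named are those the study names, the 10 in each direction with the smallest adjusted p and the 10 with the largest change at a mean of at least 1 CPM, the 10 most abundant called genes, and up to 6 called members of each list and direction. Further list members, KCNJ12 and the promoter genes were named after their values were seen. The groups, lists and members were chosen with earlier results of these data known. Alternatives were other normalizations, filters, tools and thresholds, each library left out in turn and, chosen later, a GC offset. The mouse counts were not analysed here. Some genes that meet the naming rule are not reported here.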

Additional observations from a re-analysis of the deposited data

How the results depend on the processing

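The counts of genes that rose and fell stayed within 1.5 times of 794 and 691 under DESeq2's size factors, library totals, no filter, a mean of at least 1 CPM, DESeq2, limma-voom and the GC offset, which was chosen after seeing the data. With each library left out in turn 658 to 845 genes rose and 505 to 733 fell. The thresholds moved them most: an adjusted p under 0.05 by edgeR without a fold threshold gave 2348 that rose and 2344 that fell, and an absolute log2 fold change over 1 gave 255 and 172. The first principal component held 58.9% of the variance with all tested genes, 94.6% with variance-stabilized values and 66.9% to 70.1% with libraries left out, and separated the groups in each. Of 225 called genes followed, 178 kept the call in every alternative. Genes that changed sign were not called in the main comparison. With the GC offset the log2 fold change was −0.0464 for IL2, −0.0149 for EZH2, 0.0293 for IL12RB1, −0.0426 for MDM2 and 0.0740 for SUV39H1. With libraries left out it ran from −0.0972 to 0.233 for TNF, −0.00405 to 0.141 for IL2, −0.195 to 0.00132 for EGR1, −0.0413 to 0.0801 for MDM2, −0.0255 to 0.0806 for NCAM1, −0.109 to 0.0978 for SUV39H1 and −0.0798 to 0.0235 for SUV39H2. The cause was not tested. No paired analysis was possible because the control columns cannot be matched to the replicate numbers of the DMSO samples. Depth limits genes of few counts, and 5577 of 18304 listed genes were not tested.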

Other observations

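The calls were spread unevenly over chromosomes, without a test. Chromosome 6, which carries the HLA and most histone genes, had the largest share of genes that rose, 63 of 638 tested (9.87%), and 34 that fell. Chromosome 16 had the smallest share of genes that rose, 17 of 629 (2.703%), and 51 that fell (8.11%). Genes whose mean with DMSO was under 1 CPM had 84 that rose and 6 that fell of 1071, but bins set by the control level favour increases in the lowest bin. Between 10 and 100 CPM with DMSO, 396 rose and 363 fell of 5833.

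The list members under the limit for testing that had the most counts over the 6 libraries differed among themselves. BCL2A1, a survival gene regulated by NF-kB, had 43 counts over the treated libraries and 20 over the controls, PIWIL2, a germ-line gene, 43 and 19, and IL7R, the receptor chain for interleukin 7, 43 and 10. ALDH1L2, a mitochondrial folate enzyme gene, had 25 and 28, and ALAS2, an enzyme gene of haem synthesis in red cells, 25 and 27.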
